A study of Homo sapiens with 6 samples.

Results

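The chromosome 19 zinc finger genes are the genes with a plain ZNF number on human chromosome 19, the chromosome that also carries LINC01535, the gene of the long noncoding RNA BLACAT3. They were measured by RNA sequencing in T24, a long-established line of human bladder carcinoma cells. The members were found by matching each gene identifier to its symbol and chromosome in GENCODE 29 and keeping symbols made of ZNF and digits only. This gave 181 members among 11081 gene rows, all of them typed protein coding. GENCODE 29 lists 241 such genes on the chromosome, and the other 60 were not analysed here. Another 6 rows on the chromosome whose ZNF number ends in a letter were left out by the same rule.

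The tested group was T24 cells that carried a lentiviral short hairpin RNA against BLACAT3 (shBLACAT3), and it was set against T24 cells with a lentiviral control hairpin (shControl), which the labels call wild type. Both were stable populations selected with puromycin. The labels do not tell of any further hairpin, so the loss of BLACAT3 and the hairpin itself cannot be told apart. Each group had 3 libraries of total RNA, and the labels do not say whether they came from separate cultures, so the p-values rest on a spread between libraries that could be purely technical. The level of the targeted RNA was not analysed here, so the labels were not checked against it. Values are FPKM (fragment counts divided by transcript length and by library size), and the depth behind them is unknown.

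C2H2 zinc finger proteins bind DNA through repeated fingers, each a short fold held by a zinc ion between a pair of cysteines and a pair of histidines. Most of those on chromosome 19 also have a KRAB box, which recruits TRIM28, a scaffold for the histone H3 lysine 9 methyltransferase SETDB1 and for heterochromatin protein HP1, and many silence transposable elements in this way. The genes lie in tandem stretches of near copies, so fragments shared between neighbours can be assigned to the wrong one, and single values are uncertain for that reason.

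As a check of the labelled cell type, 5 of 14 markers of bladder epithelium and its carcinoma lines were in the table, namely KRT7, KRT8, KRT18, PPARG and FOXA1. Their summed level was 124 to 142 FPKM in shBLACAT3 libraries and 180 to 211 FPKM in shControl libraries. The 5 did not move together. KRT8, KRT18 and FOXA1 were lower in every shBLACAT3 library than in any shControl library, while KRT7 (28.6 to 35.5 FPKM in shBLACAT3, against 13.6 to 24.2 FPKM in shControl libraries) and PPARG (4.47 to 5.05 FPKM in shBLACAT3, against 3.48 to 4.26 FPKM in shControl libraries) were higher. The part of these differences in the results that follow was not tested. Of 12 markers of white blood cells, endothelium and smooth muscle, CD68 alone was in the table, at 1.21 FPKM or less in every library. The listed values summed to 211958 to 226953 FPKM per shBLACAT3 library and 220543 to 225122 FPKM per shControl library.

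What the members shared at their promoters was read from RefSeq, which gave 300 bases (250 before and 50 after the start, build GRCh38.p14) for 164 of the 181 members and for 27305 promoters in all. The set of all promoters also holds genes that were not listed in these cells, unlike the members and the ZNF genes elsewhere. The ETS core CCGGAAG was in 75 of the 164 member promoters (45.7%), against 63 of 158 promoters of ZNF genes on other chromosomes (39.9%) and 10.7% of all promoters. The element known to be bound by ZNF143 and THAP11 was in 26 (15.9%), against 5.06% of the ZNF promoters elsewhere and 1.15% of all. The YY1 core AAGATGGC was in 12 (7.32%), against 3.16% of the ZNF promoters elsewhere and 3.03% of all. The interferon-stimulated response element was in 0 of the 164, in 1.27% of the ZNF promoters elsewhere and in 3.65% of all promoters. Each motif was searched on both strands, hits of different motifs overlapped in 6 of the 27305 promoters, and a match is a description of these letters and not a bound site. The ZNF143 and THAP11 element was searched for after some of these promoters had been seen.

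The promoters of 4 members are given 5′ to 3′ on the gene's strand, with motif matches in capitals. ZNF224 and ZNF714 are shown because they were the members whose levels passed the test, ZNF551 because it had the largest log2 fold change, and ZNF527 because it is the nearest tested member after LINC01535.
ZNF224 (chr19:44094111-44094410, plus strand, ZNF143 and THAP11 element in capitals): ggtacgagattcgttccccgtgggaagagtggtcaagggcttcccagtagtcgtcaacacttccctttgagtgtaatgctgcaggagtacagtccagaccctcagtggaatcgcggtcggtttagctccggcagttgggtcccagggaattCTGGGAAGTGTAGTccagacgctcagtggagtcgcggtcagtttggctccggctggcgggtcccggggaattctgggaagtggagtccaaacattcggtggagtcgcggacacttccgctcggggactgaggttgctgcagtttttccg
ZNF714 (chr19:21081953-21082252, plus strand, none of the motifs): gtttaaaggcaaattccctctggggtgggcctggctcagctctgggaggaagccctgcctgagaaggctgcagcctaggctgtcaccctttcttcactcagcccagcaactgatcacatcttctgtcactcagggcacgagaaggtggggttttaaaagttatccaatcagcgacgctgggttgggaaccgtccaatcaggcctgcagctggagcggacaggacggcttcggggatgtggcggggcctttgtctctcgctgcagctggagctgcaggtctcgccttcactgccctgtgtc
ZNF551 (chr19:57681727-57682026, plus strand, ETS core in capitals, on the other strand): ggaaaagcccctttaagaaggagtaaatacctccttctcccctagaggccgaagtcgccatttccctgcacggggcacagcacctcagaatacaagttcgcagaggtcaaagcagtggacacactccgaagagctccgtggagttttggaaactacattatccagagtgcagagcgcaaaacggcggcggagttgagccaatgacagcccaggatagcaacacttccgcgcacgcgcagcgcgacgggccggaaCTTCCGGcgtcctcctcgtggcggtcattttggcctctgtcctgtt
ZNF527 (chr19:37370849-37371148, plus strand, ZNF143 and THAP11 element in capitals): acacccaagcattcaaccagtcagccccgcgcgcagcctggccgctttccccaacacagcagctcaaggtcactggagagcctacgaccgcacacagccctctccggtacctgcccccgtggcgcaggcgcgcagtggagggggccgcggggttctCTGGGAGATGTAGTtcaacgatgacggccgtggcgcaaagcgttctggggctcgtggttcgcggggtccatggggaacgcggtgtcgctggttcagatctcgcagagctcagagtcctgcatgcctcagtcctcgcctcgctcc
The 4 differ in CG dinucleotides, with 20 in ZNF224, 10 in ZNF714, 22 in ZNF551 and 27 in ZNF527. The median was 21 over the 164 member promoters and 14 over all promoters.

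The members were low in these cells, and few of them passed the test between the groups. Of the 181, 149 averaged 1 FPKM or more across the 6 libraries and were tested, and 32 lay under that level. The tested members had a median mean level of 2.26 FPKM (quartiles 1.57 and 3.44), against 7.15 FPKM over all 10008 tested genes. In limma 2 of the 149 passed an adjusted p of 0.05 (1.34%), ZNF714 higher and ZNF224 lower in shBLACAT3 cells, while 9.37% of all tested genes passed (2.57% higher and 6.8% lower). At an unadjusted p under 0.05 there were 21 members (14.1%), 12 higher and 9 lower, against 25.7% of all tested genes. Among the 1913 tested genes between the quartiles of the members' levels 10% passed, and of the 75 members in that range 1 did (1.33%).

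The median log2 fold change of the tested members was 0.04 (quartiles -0.12 and 0.18), and that of all tested genes was -0.0025. A total of 83 members had a higher and 66 a lower mean in shBLACAT3 cells. The members' median absolute log2 fold change, 0.149, was near the 0.146 of all tested genes, and their median standard error was 0.128 against 0.0992. A change of at least 1 on the log2(FPKM + 1) scale was seen in 2 members, ZNF551 and ZNF888, and this scale understates the change of low genes. The groups did not overlap in 28 members (18.8%), 15 higher and 13 lower, against 32.8% of all tested genes (14.1% higher and 18.7% lower). Between the quartiles of the members' levels the groups did not overlap in 17.3% of the members and in 30.3% of all genes tested. Of the 164 tested ZNF genes on other chromosomes 5 passed (3.05%), 1 higher and 4 lower, with a median of 0.0038.

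**Figure D1:**
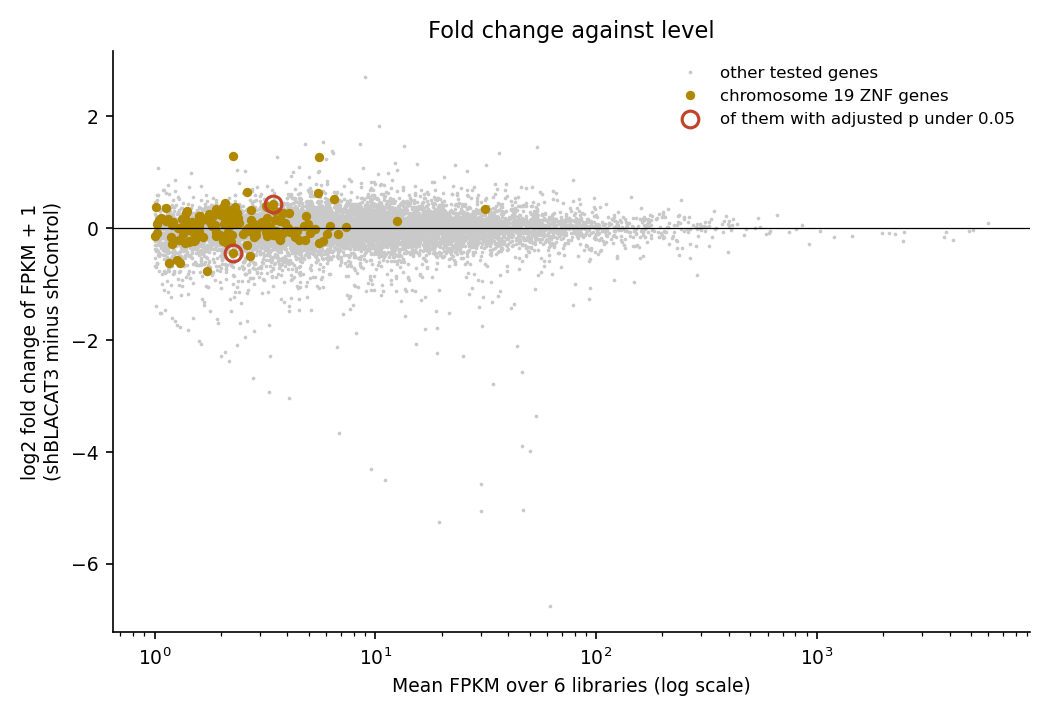
Mean FPKM over the 6 libraries (horizontal, log scale) against the log2 fold change of FPKM + 1, shBLACAT3 minus shControl (vertical), for 149 chromosome 19 ZNF genes and the other tested genes. The members sit at low levels, with a median of 2.26 FPKM, and 2 of them (circled) had an adjusted p under 0.05.

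ZNF224, a KRAB repressor known for binding the promoter of the aldolase A gene, fell in shBLACAT3 cells. Its levels were 1.89, 1.81 and 1.59 FPKM in the shBLACAT3 libraries, against 2.57, 3.0 and 2.74 FPKM in the shControl libraries. All shBLACAT3 values lay below all shControl values, and the means were 1.76 ± 0.15 and 2.77 ± 0.21 FPKM (SD, n = 3 each). The log2 fold change was -0.45 (SE 0.09, adjusted p 0.025 in limma). The same test gave an adjusted p of 0.042 to 0.097 when 1 library was left out, and the call was kept only without shBLACAT3 replicate 3. With the replicate number added to the fit, ZNF224 did not pass either (adjusted p 0.064 in limma).

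ZNF714, a zinc finger gene of the stretch from ZNF101 to ZNF254, rose in shBLACAT3 cells. It was listed at 3.88, 4.60 and 3.87 FPKM in the shBLACAT3 libraries, against 2.64, 3.11 and 2.63 FPKM in the shControl libraries. The groups did not overlap, and the means were 4.11 ± 0.42 and 2.79 ± 0.27 FPKM (SD, n = 3 each). Its log2 fold change was 0.43 (SE 0.10, adjusted p 0.041 in limma). With 1 library left out the adjusted p in limma ran from 0.048 to 0.15, and the call was again kept only without shBLACAT3 replicate 3.

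The 5 members with the next smallest p did not pass. ZNF551 had 4.15, 2.86 and 3.48 FPKM in shBLACAT3 libraries, against 0.371, 0.258 and 2.45 FPKM in shControl libraries. Replicate 3 stood far above the other shControl libraries, and the log2 fold change was 1.30 (SE 0.38, adjusted p 0.088 in limma). Without shControl replicate 3 it was 1.77 (adjusted p 0.0032 in limma). Over all libraries left out in turn the adjusted p in limma ran from 0.0032 to 0.25.

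ZNF888 had 8.54, 9.62 and 6.0 FPKM in shBLACAT3 libraries, against 1.02, 3.26 and 4.83 FPKM in shControl libraries, with a log2 fold change of 1.28 (SE 0.38, adjusted p 0.096 in limma). The groups did not overlap, yet the shControl values spread over more than 3-fold. In GENCODE 29 ZNF551 and ZNF888 each overlap another protein coding gene on the same strand, and no source used here says how shared fragments were divided. Such an overlap is not particular to them, since 41 of the 149 tested members had one.

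ZNF700 had 8.20, 9.53 and 6.04 FPKM in shBLACAT3 libraries, against 4.84, 5.76 and 4.72 FPKM in shControl libraries (log2 fold change 0.53, SE 0.16, adjusted p 0.093 in limma). It is also overlapped by a gene on its strand. Without shBLACAT3 replicate 3, its lowest shBLACAT3 value, the adjusted p was 0.019 in limma, in a range of 0.019 to 0.25 over the libraries left out.

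ZNF44 and ZNF256 lay lower in every shBLACAT3 library than in any shControl library. ZNF44 had 2.20, 2.43 and 2.14 FPKM, against 3.33, 2.83 and 2.84 FPKM in shControl libraries (log2 fold change -0.30, SE 0.09, adjusted p 0.092 in limma). ZNF256 had 4.91, 5.21 and 4.78 FPKM in shBLACAT3 libraries, against 5.90, 6.81 and 5.85 FPKM in shControl libraries (log2 fold change -0.27, SE 0.08, adjusted p 0.11 in limma). Neither passed with any library left out.

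**Figure D2:**
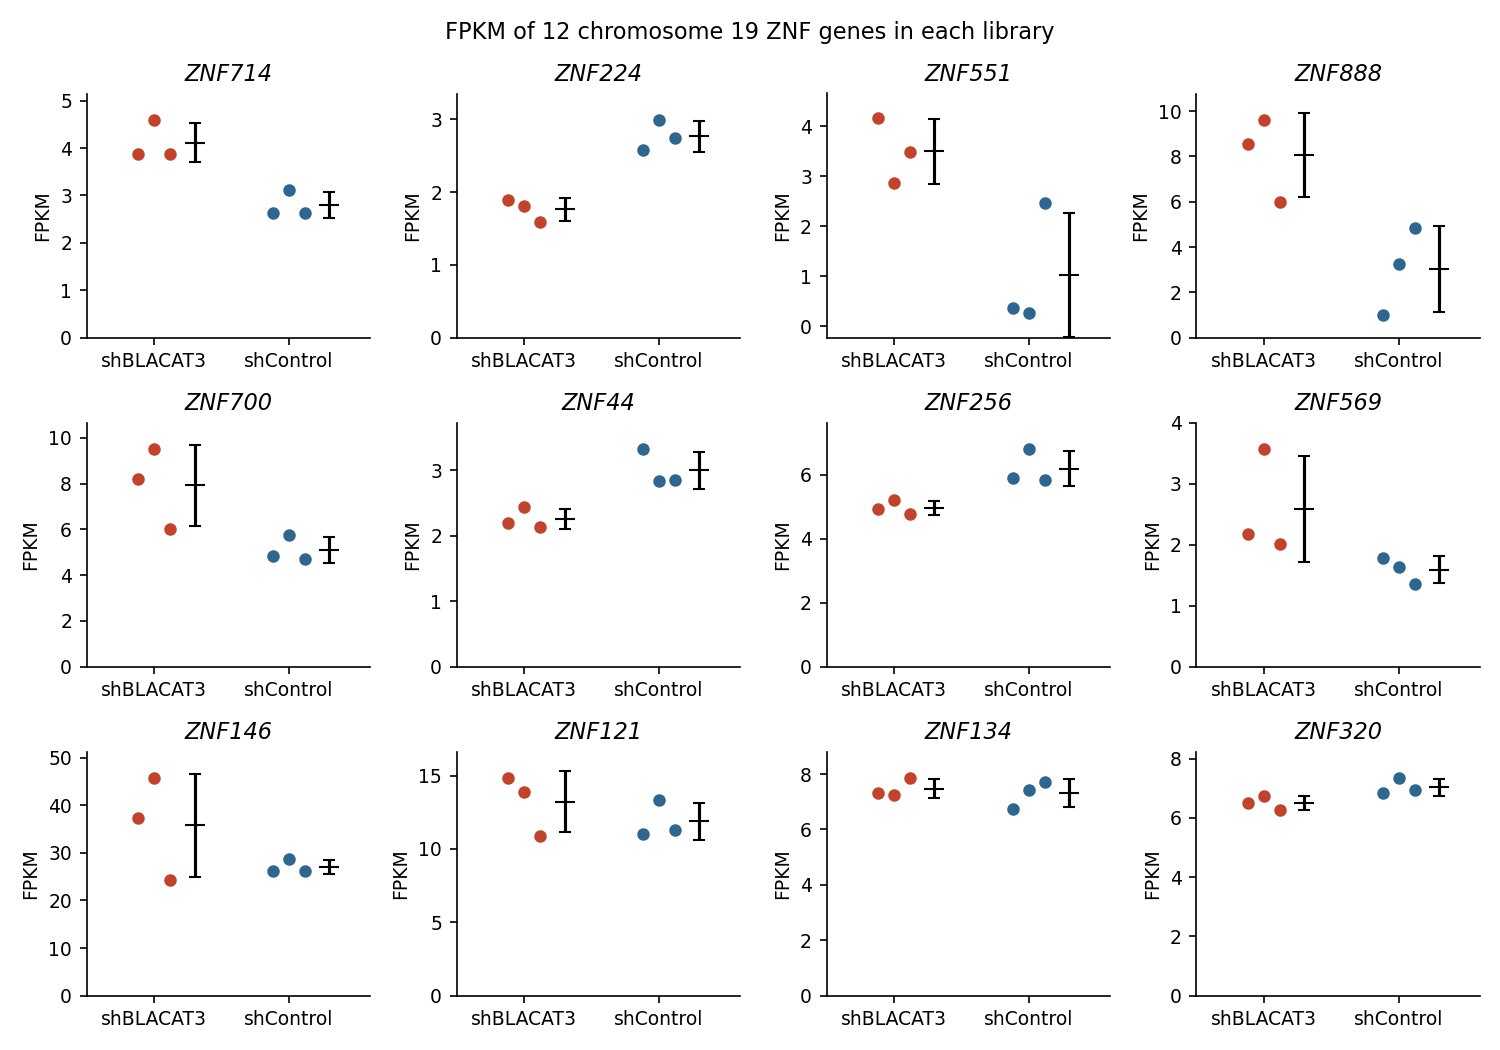
FPKM (vertical) in each of 3 shBLACAT3 and 3 shControl libraries for 12 chromosome 19 ZNF genes, each panel with its own scale. Points are libraries and the bars beside them the mean and SD. ZNF714 and ZNF224 separate the groups with a small spread, while 1 shControl library of ZNF551, at 2.45 FPKM, stands apart from the other two.

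The members with the highest levels did not pass. ZNF146, whose protein is made almost wholly of fingers without a KRAB box, was the highest, with 37.3, 45.8 and 24.3 FPKM in shBLACAT3 libraries, against 26.2, 28.7 and 26.1 FPKM in shControl libraries. The groups overlapped through shBLACAT3 replicate 3, and the log2 fold change was 0.35 (SE 0.21, adjusted p 0.34 in limma). Without that library it was 0.60 (adjusted p 0.022 in limma), while the adjusted p ran from 0.022 to 0.64 over all libraries left out.

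ZNF121 followed with 14.9, 13.9 and 10.9 FPKM in shBLACAT3 libraries, against 11.0, 13.3 and 11.3 FPKM in shControl libraries. ZNF134 averaged 7.47 ± 0.35 and 7.30 ± 0.50 FPKM in shBLACAT3 and shControl cells (SD, n = 3 each). ZNF320 averaged 6.51 ± 0.23 FPKM in shBLACAT3 and 7.04 ± 0.28 FPKM in shControl cells (SD, n = 3 each). These 3 had log2 fold changes of 0.14, 0.03 and -0.10, and the sign of that of ZNF134 turned without shBLACAT3 replicate 3 or shControl replicate 1 (-0.0043 and -0.02).

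Around LINC01535 itself, the nearest member before it in gene order was ZNF383, which was under the level for testing. It was listed at 0.731, 0.80 and 0.246 FPKM in shBLACAT3 libraries, against 0.73, 0.356 and 0.844 FPKM in shControl libraries, and the groups overlapped. The 5 nearest tested members before LINC01535 were ZNF850, ZNF790, ZNF829, ZNF568 and ZNF420, with log2 fold changes of 0.16, 0.21, 0.12, 0.08 and 0.05 and adjusted p of 0.30 or more in limma. In the mouse, the counterpart of ZNF568 represses a placental transcript of Igf2. ZNF420 is known as an inhibitor of p53 and had 1.91, 2.19 and 1.67 FPKM in shBLACAT3 libraries, against 2.13, 1.72 and 1.62 FPKM in shControl libraries.

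After LINC01535 the nearest tested members were ZNF527, ZNF569, ZNF570, ZNF607 and ZNF574. ZNF574 is 252 genes away in GENCODE 29 and belongs to the next stretch, while the other 4 lie within 20 genes. ZNF569 was the only one of the 10 tested members named on either side whose groups did not overlap, with 2.18, 3.58 and 2.01 FPKM in shBLACAT3 libraries, against 1.78, 1.64 and 1.35 FPKM in shControl libraries (log2 fold change 0.45, SE 0.17, adjusted p 0.17 in limma). Among all tested genes the groups did not overlap in 32.8% (14.1% higher and 18.7% lower). ZNF527 had 0.98, 1.24 and 1.22 FPKM in shBLACAT3 libraries, against 1.0, 0.657 and 1.16 FPKM in shControl libraries. ZNF570 differed more between libraries of a group than between the groups, with 0.169, 2.21 and 1.93 FPKM in shBLACAT3 and 1.89, 2.29 and 0.213 FPKM in shControl libraries. ZNF607 and ZNF574 had log2 fold changes of -0.05 and -0.06, both of which turned sign under quantile normalization.

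Along the chromosome the members were divided wherever more than 1.5 Mb separated 1 member from the next in GENCODE 29. This gave 7 stretches with more than 3 tested members, named here by their first and last member. Each count below has no test, since the stretches were drawn with the values known. Over all tested genes 49.4% had a higher mean in shBLACAT3 cells.

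On the short arm, from ZNF101 to ZNF254, a stretch that holds many primate-specific KRAB genes, 15 of 18 tested members had a higher mean in shBLACAT3 cells. The median log2 fold change there was 0.19. ZNF91, which represses SVA and L1 retrotransposons, had 2.05, 2.07 and 1.01 FPKM in shBLACAT3 libraries, against 1.32, 1.41 and 1.54 FPKM in shControl libraries (log2 fold change 0.14, adjusted p 0.66 in limma). ZNF85 had 1.86, 3.09 and 1.85 FPKM in shBLACAT3 libraries, against 1.93, 1.39 and 1.46 FPKM in shControl libraries (log2 fold change 0.32, adjusted p 0.28 in limma). ZNF93, a repressor of L1 elements, was under the level for testing, with 0.509, 0.681 and 0.544 FPKM in shBLACAT3 libraries, against 0.399, 0.45 and 0.253 FPKM in shControl libraries. ZNF714 was the only member of the stretch that passed.

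In the stretch from ZNF302 to ZNF573, in which LINC01535 lies, 14 of 18 tested members had a higher mean in shBLACAT3 cells, with a median log2 fold change of 0.13. ZNF302 had 7.13, 7.95 and 5.06 FPKM in shBLACAT3 libraries, against 5.34, 5.74 and 1.75 FPKM in shControl libraries, with shControl replicate 3 far below the rest (log2 fold change 0.64, SE 0.35, adjusted p 0.31 in limma). From ZNF175 to ZNF331, 19 of 27 had a higher mean (median 0.11). ZNF331, an imprinted gene, had 4.29, 2.86 and 2.40 FPKM in shBLACAT3 libraries, against 2.03, 2.31 and 2.55 FPKM in shControl libraries (adjusted p 0.29 in limma).

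In the remaining stretches more members had a lower than a higher mean. From ZNF628 to ZNF446, at the end of the long arm, 12 of 33 had a higher mean and 21 a lower one (median -0.06), and the groups did not overlap in 9 (27.3%), 7 lower and 2 higher, against 32.8% of all tested genes (18.7% lower and 14.1% higher). ZNF304, which recruits TRIM28 to silence the INK4-ARF locus, had 4.27, 4.20 and 4.23 FPKM in shBLACAT3 libraries, against 4.67, 4.07 and 4.57 FPKM in shControl libraries. ZNF274, which brings SETDB1 to the ends of other zinc finger genes, had 3.34, 3.40 and 3.34 FPKM in shBLACAT3 libraries, against 3.60, 3.26 and 3.49 FPKM in shControl libraries. From ZNF557 to ZNF846 5 of 11 had a higher mean (median -0.05), from ZNF653 to ZNF791 7 of 18 (median -0.08), and from ZNF574 to ZNF296 9 of 20 (median -0.06). Without shBLACAT3 replicate 3 the medians of these last 3 stretches were 0.0053, 0.03 and 0.02. Without shBLACAT3 replicate 2 that from ZNF557 to ZNF846 was 0.0159, without shControl replicate 1 that from ZNF574 to ZNF296 was 0.0031, and under quantile normalization that from ZNF653 to ZNF791 was 0.03, so their direction did not hold.

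**Figure D3:**
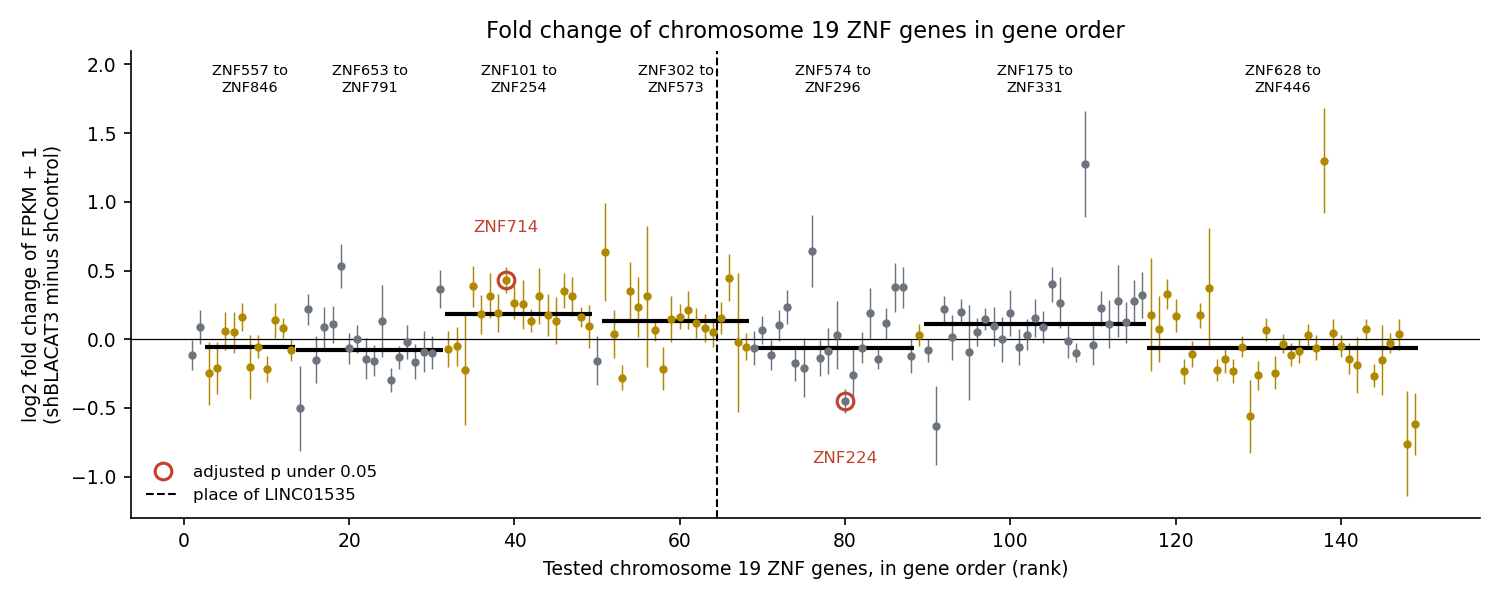
Log2 fold change of FPKM + 1, shBLACAT3 minus shControl (vertical), of the 149 tested chromosome 19 ZNF genes by rank in gene order (horizontal). Points are genes with their standard error, colours alternate between stretches, black bars are stretch medians, and the dashed line is the place of LINC01535. The medians run from -0.08 (ZNF653 to ZNF791) to 0.19 (ZNF101 to ZNF254).

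These stretch medians moved with single libraries. In the stretch from ZNF101 to ZNF254, the median deviation of log2(FPKM + 1) from the mean of the 6 libraries was 0.15, 0.35 and -0.15 in shBLACAT3 replicates 1, 2 and 3, against -0.12, -0.05 and -0.18 in shControl replicates 1, 2 and 3. The value of shBLACAT3 replicate 3 lay among the shControl values, while the other shBLACAT3 libraries lay above them. From ZNF302 to ZNF573 the values were 0.09, 0.16 and -0.09 in shBLACAT3 libraries, against -0.04, -0.03 and -0.07 in shControl libraries. From ZNF175 to ZNF331 they were 0.11, 0.20 and -0.13 in shBLACAT3 libraries, against -0.08, 0.02 and -0.12 in shControl libraries. In both, shBLACAT3 replicate 3 was the lowest of the 6 libraries and the other shBLACAT3 libraries the highest. Replicate 3 was also the lowest of the shControl libraries in both, and from ZNF101 to ZNF254. From ZNF628 to ZNF446 the 3 shBLACAT3 libraries lay together (-0.02, -0.0017 and -0.04), below the shControl libraries (0.06, 0.0087 and 0.06).

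Over all 149 tested members, shBLACAT3 replicate 3 was the lowest of the shBLACAT3 libraries in 89 (59.7%), against 51.8% of the tested ZNF genes on other chromosomes and 36.3% of all tested genes. The median level of the tested members was 2.45, 2.67 and 2.01 FPKM in shBLACAT3 libraries, against 2.24, 2.46 and 2.04 FPKM in shControl libraries. Replicate 3 was thus the lowest and replicate 2 the highest in each group. Without shBLACAT3 replicate 3 the median log2 fold change was 0.34 from ZNF101 to ZNF254, 0.16 from ZNF302 to ZNF573 and 0.19 from ZNF175 to ZNF331, and -0.06 from ZNF628 to ZNF446. Without shBLACAT3 replicate 2 the same medians were 0.0994, 0.0755, 0.0408 and -0.05. That from ZNF175 to ZNF331 was 0.0731 without shBLACAT3 replicate 1 and 0.0608 without shControl replicate 3, and that from ZNF628 to ZNF446 was -0.10 without shControl replicate 2. Without shBLACAT3 replicate 3, 9 of 151 tested members passed (5.96%), against 13.4% of all genes tested then. Besides ZNF714 and ZNF224 these were ZNF100, ZNF146, ZNF600, ZNF675, ZNF681, ZNF700 and ZNF761, all higher. Whether RNA quality or another difference of that library, or one shared by the libraries numbered 3, accounts for this was not tested.

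Without shBLACAT3 replicate 1 or 2, or without shControl replicate 1, 0 members passed in limma over the remaining 5 libraries. Of all genes tested then, 5.68%, 7.32% and 3.58% passed in these fits, also less than with all libraries. Without shControl replicate 2 the member that passed was ZNF584, lower in shBLACAT3 cells, and without shControl replicate 3 it was ZNF551. These were 0.68% and 0.667% of the members, against 4.1% and 4.22% of all genes tested then.

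**Figure D4:**
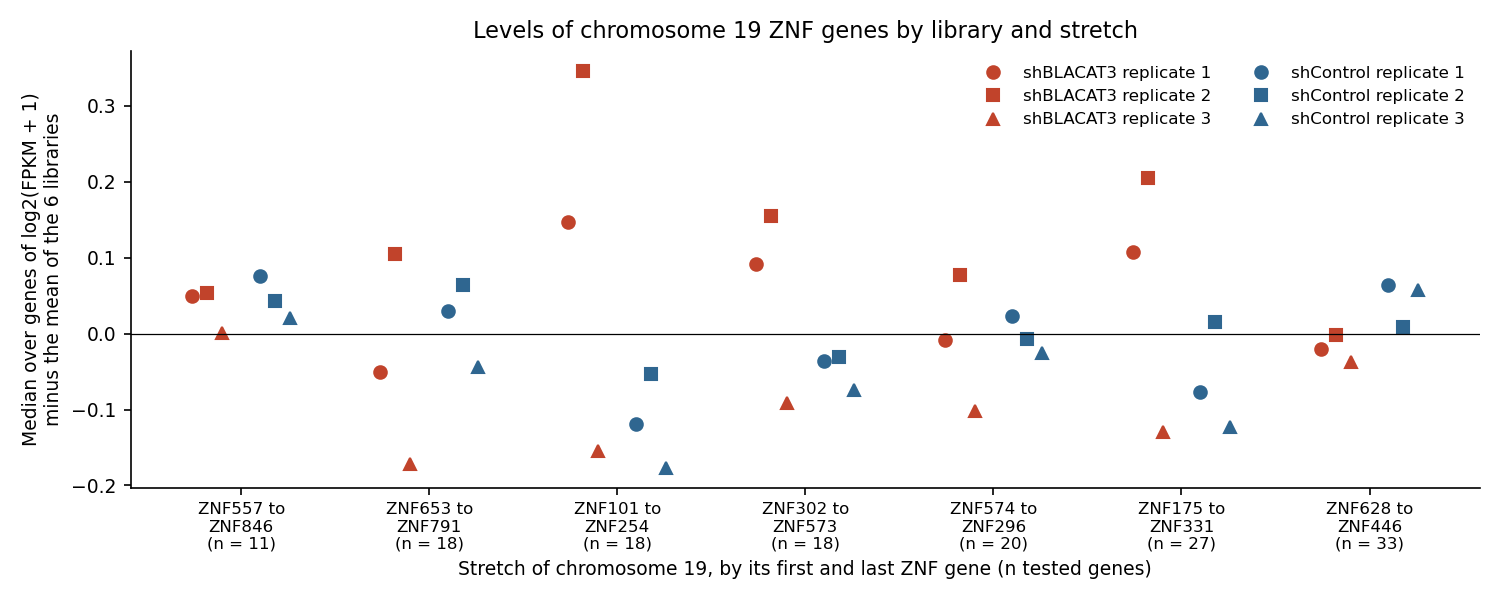
Median over the tested genes of each stretch of log2(FPKM + 1) minus the mean of the 6 libraries (vertical), for 7 stretches of chromosome 19 (horizontal), with 1 point per library. shBLACAT3 replicate 3 (triangle) lies below the other shBLACAT3 libraries in every stretch, at -0.15 from ZNF101 to ZNF254 where replicates 1 and 2 lie at 0.15 and 0.35.

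Spreads of over 3-fold between libraries of a group were more frequent among the members than among tested genes in general, as a description with no test. The members also had lower levels (median 2.26 FPKM, against 7.15 FPKM), and such spreads were not counted among other genes at their levels. The highest shBLACAT3 library was over 3 times the lowest in 11 of the 149 tested members (7.38%), against 2.38% of all tested genes, and for shControl libraries in 10 (6.71%), against 1.76%. ZNF8 was listed at 0 FPKM in shBLACAT3 replicate 2, with 1.90 and 1.57 FPKM in the other shBLACAT3 libraries and 2.24, 2.48 and 2.20 FPKM in shControl libraries. ZNF264 was listed at 2.54, 2.13 and 2.09 FPKM in shBLACAT3 libraries, against 2.58, 0.169 and 2.77 FPKM in shControl libraries.

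Other members of known role did not pass. ZNF473, which takes part in the processing of histone messenger RNA, averaged 3.39 ± 0.05 FPKM in shBLACAT3 and 3.30 ± 0.24 FPKM in shControl cells (SD, n = 3 each). ZNF175, known for repressing the HIV promoter in macrophages, averaged 1.44 ± 0.11 and 1.58 ± 0.17 FPKM in shBLACAT3 and shControl cells (SD, n = 3 each). ZNF432 was higher in each shBLACAT3 library, with 2.46, 2.86 and 2.29 FPKM, against 2.0, 2.28 and 1.95 FPKM in shControl libraries (log2 fold change 0.20, adjusted p 0.24 in limma). ZNF350, a partner of BRCA1, and ZNF444, which binds a scavenger receptor promoter in endothelial cells, were under the level for testing, at 0.675 ± 0.11 and 0.655 ± 0.10 FPKM in shBLACAT3 cells, against 0.596 ± 0.03 and 0.746 ± 0.10 FPKM in shControl cells (SD, n = 3 each). ZNF43, ZNF154, ZNF382, ZNF649 and ZNF671 were not analysed here.

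Among the 32 members under the level for testing, the groups did not overlap in 4, against 40.7% of all genes under that level. These were ZNF93, ZNF846 and ZNF221, higher, and ZNF442, lower. ZNF846 had 0.554, 0.543 and 0.437 FPKM in shBLACAT3 libraries, against 0.298, 0.421 and 0.288 FPKM in shControl libraries. ZNF442 had 0.653, 0.594 and 0.609 FPKM in shBLACAT3 libraries, against 1.0, 1.01 and 0.832 FPKM in shControl libraries. No gene row had both group means under 0.5 FPKM, so members at this level can be listed because of the group in which they were higher, and no weight rests on them.

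The proteins of the members, translated from the longest coding sequence in GENCODE 29, matched a C2H2 finger pattern a median of 13 times, up to 32 times in ZNF91, and ZNF738 had no match. A stretch like the start of a KRAB box was found in 140 of the 181 (77.3%), and some KRAB boxes that differ from the pattern, such as that of ZNF350, were missed. Of the tested members 116 had the stretch, with a median log2 fold change of 0.04 and ZNF224 passing (0.862%), and 33 did not, with a median of 0.06 and ZNF714 passing (3.03%). Over all tested genes 9.37% passed. Since the pattern missed some KRAB boxes, the 33 cannot be read as members without one. A promoter was read for 135 of the tested members. Those with the ETS core (59) had a median of 0.09, and those without it (76) a median of -0.02. For the YY1 core the medians were 0.14 with it (9) and 0.04 without it (126). For the ZNF143 and THAP11 element they were 0.08 with it (21) and 0.03 without it (114). These splits were not tested and were not made over other genes.

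The cofactors through which KRAB zinc finger proteins act did not pass either. Of 40 listed genes of TRIM28 silencing and heterochromatin, all tested, 0 passed in limma, against 9.37% of all tested genes. At an unadjusted p under 0.05 there were 7 (17.5%), against 25.7% of all tested genes, and the median log2 fold change was 0.06. The groups did not overlap in 35% of the 40, 7 higher and 7 lower, against 32.8% of all tested genes. CBX1 had the smallest p of the 40 (log2 fold change -0.19, adjusted p 0.067 in limma). Its levels were 64.4, 65.6 and 64.8 FPKM in shBLACAT3 libraries, against 73.7, 75.9 and 72.4 FPKM in shControl libraries. TRIM28 averaged 36.6 ± 4.47 FPKM in shBLACAT3 and 35.5 ± 1.11 FPKM in shControl cells (SD, n = 3 each), and the sign of its log2 fold change of 0.04 turned without shBLACAT3 replicate 1 (-0.04). SETDB1 averaged 4.33 ± 0.26 FPKM in shBLACAT3 and 4.67 ± 0.32 FPKM in shControl cells (SD, n = 3 each), with a log2 fold change of -0.09 (SE 0.08, adjusted p 0.54 in limma). Without shBLACAT3 replicate 3, 4 of the 40 passed in limma, while 13.4% of all genes tested then did.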

How the data were processed

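Total RNA of T24 cells was sequenced from stranded libraries, per the labels' protocols. StringTie, cutadapt and HISAT2 2.1.0 are named in the submitters' processing notes, without saying what each was used for. No source used here gives the genome build, annotation or strand setting. The deposited values were read as FPKM from their sums and, per the labels, from the naming of StringTie, as the columns carry no unit. Columns headed NC were read as shControl and SH as shBLACAT3, each with the replicate number of the title. Of 11081 rows, 11026 matched GENCODE 29 (GRCh38), which gave symbols, chromosome and gene order. The deposited identifiers resemble those of a release on GRCh37, so gene coordinates are not given, and promoter coordinates are those of RefSeq.

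Rows sharing a symbol were summed, and the 10008 genes averaging 1 FPKM or more were tested. The test was limma 3.58.1 (R 4.3.3) on log2(FPKM + 1), two-sided, fitting the group alone with a trend of variance on level. P-values were adjusted by the Benjamini-Hochberg method over all tested genes (threshold 0.05). FPKM hold no depth, so there are no count tests and no intervals for counting error. The members, gene lists and tests were chosen with earlier results of these data known. Stretches, the background between the quartiles of the members' levels, the ZNF143 and THAP11 element and the protein patterns were chosen after the values were seen. A C2H2 finger was a pair of cysteines with 2 to 4 residues between them, 12 residues, then a pair of histidines with 3 to 5 between them. The KRAB stretch was sought in the first 200 residues. Named members were those that passed, the 5 with the next smallest p, the 5 highest, the 5 tested ones on each side of LINC01535, 20 of known role and those under the filter whose groups did not overlap, and others were chosen after their values were seen. On simulated data for this comparison with 10008 genes, the test called 34%, 92%, 96% and 96% of genes changed by 0.5, 1, 2 and 3 on the log2 scale. The changed genes were drawn from all tested genes. The share for the members, whose standard errors were larger, was not measured. Alternatives were a replicate block, a pseudocount of 0.1, lower or no filter, median scaling, quantile normalization, no trend, array weights, robust moderation and each library left out. Figures were drawn with matplotlib 3.10.9.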

Additional observations from a re-analysis of the deposited data

How the results depend on the processing

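With 1 library left out, the count of all genes called ran from 357 to 1342, that of chromosome 19 ZNF genes called higher from 0 to 8 and lower from 0 to 1, that of ZNF genes on other chromosomes from 1 to 16, and that of the KRAB corepressor genes from 0 to 4. The median of the tested members stayed between 0.0081 and 0.083 and under quantile normalization was 0.13 (0.03 for all tested genes). Quantile normalization called 3 members higher (ZNF714, ZNF791 and ZNF865), and array weights called 2 members higher, 1 corepressor gene and 8 ZNF genes on other chromosomes. With ZNF224, lower in both, these settings called 2.68% and 2.01% of the tested members. Of all tested genes they called 9.2% and 11.7%. Deviations of libraries that share a replicate number correlated weakly (0.10, 0.12 and 0.09), yet every library correlated best with its own number. Libraries with different numbers reached at most 0.024. The main test did not pair the libraries, and whether the numbers mark a pairing cannot be told from these values. With a replicate block 612 genes were called in all, and among the members 1 higher (ZNF714) and 0 lower, ZNF224 having an adjusted p of 0.064 in limma. Of 464 values of named genes under the alternatives, 432 kept their direction and side of the threshold and 17 reversed. Under quantile normalization ZNF570 (0.21), ZNF607 (0.0437), ZNF574 (0.0086), ZNF274 (0.0183) and ZNF175 (0.0201) turned sign. With 1 library left out these ranges crossed 0: ZNF570 -0.47 to 0.44, ZNF607 -0.12 to 0.0106, ZNF574 -0.13 to 0.0376, ZNF420 -0.0138 to 0.13, ZNF134 -0.0194 to 0.0667, ZNF473 -0.0160 to 0.0607 and TRIM28 -0.0365 to 0.13. The stretch from ZNF653 to ZNF791 had a median of 0.03 under quantile normalization, and those from ZNF101, ZNF302 and ZNF175 stayed above 0 in every setting. The cause of these shifts was not tested.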
